A study of Mus musculus and Macaca mulatta with 39 samples.

Results

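Loci of mouse occipital cortex at E17.5 (E for embryonic day) were sorted by whether they carried H3K27ac, H3K4me2 or both. The regions called in 4 lists (H3K27ac and H3K4me2, 2 biological replicates each) were merged wherever they overlapped, which gave 108335 loci. A locus was placed in 1 of 3 classes when both replicates gave the same answer for both marks: both marks in both replicates (36788 loci), H3K4me2 in both and H3K27ac in neither (H3K4me2 only, 5596 loci), or H3K27ac in both and H3K4me2 in neither (H3K27ac only, 6389 loci). The classes therefore hold 48773 of the 108335 loci, and in the other 59562 the replicates of a mark disagreed. Merging all 16 mouse lists of the series gave 150851 loci.

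The series profiled embryonic cortex of mouse and rhesus by chromatin immunoprecipitation and sequencing (ChIP-seq), with 39 samples listed and 26 region lists used. Mouse tissue came from C57BL6J embryos at E11.5 (whole cortex), E14.5 (whole cortex) and E17.5 (frontal and occipital cortex, kept apart), and the labels give no genetic change or drug treatment for any group. Each tissue had 2 replicates, and a replicate consisted of an H3K27ac and an H3K4me2 precipitation that shared an input. The labels do not say whether a replicate was 1 embryo or a pool of embryos.

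H3K27ac is an acetyl group on lysine 27 of histone H3 that is laid down by the acetyltransferases CBP and p300 and marks promoters and enhancers in use. H3K4me2 is a pair of methyl groups on lysine 4 of the same histone and covers promoters and enhancers more broadly, including elements that are open but not acetylated. Elements with H3K4 methylation and no acetylation are often called primed, and "poised" is usually kept for those that also carry H3K27me3, a repressive mark. H3K27me3 was not measured here, so the classes are named by the marks alone. Around E17.5 the mouse cortex holds postmitotic neurons of most layers beside the remaining progenitors, and E11.5 cortex is mostly dividing neuroepithelium and radial glia. In bulk tissue, a region carried by fewer cells and a weaker mark in every cell cannot be told apart, and 2 marks at a locus need not lie in the same cells.

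The 4 occipital lists differed in size within each mark. H3K27ac replicate 1 held 73356 regions over 161.5 Mb and replicate 2 held 75151 regions over 129.3 Mb. H3K4me2 replicate 1 held 54330 regions over 112.8 Mb and replicate 2 held 76833 regions over 162.2 Mb. Replicate 1 was thus the longer list for acetylation and the shorter one for methylation. No read number or score stood beside a region, so the depth behind each list was unknown, and absence of a mark means that no region was called. Without an annotation of the files' build (mm9), the labelled tissue was not checked against marker genes and loci are given by position only (1-based).

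Loci with both marks made up 33.96% of all loci and 63.7% of their total length. H3K4me2-only loci made up 5.17% and H3K27ac-only loci 5.90%. A further 39101 loci (36.1%) were called in a single list. The single-list loci came from H3K27ac replicate 1 at 14193 loci, H3K27ac replicate 2 at 12558, H3K4me2 replicate 2 at 11122 and H3K4me2 replicate 1 at 1228. H3K4me2 replicate 1 therefore added few loci of its own.

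The loci just outside a class were unevenly split between the H3K4me2 lists. Just outside the H3K27ac-only class lay 7023 loci acetylated in both replicates and methylated in replicate 2 alone. The mirror pattern, methylated in replicate 1 alone, held 312 loci. Just outside the H3K4me2-only class lay 3223 loci methylated in both replicates and acetylated in replicate 1 alone, and 3042 acetylated in replicate 2 alone. The 2 acetylation lists were nearly balanced in this respect and the 2 methylation lists were not. Both single-mark classes are therefore about as large as the sets of loci that 1 more region would have removed from them.

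The same rule gave the other mouse tissues different proportions of the single-mark classes. Loci with both marks numbered 22939 at E11.5, 25034 at E14.5, 31558 in E17.5 frontal cortex and 36788 in E17.5 occipital cortex. H3K4me2-only loci numbered 4025, 1486, 2593 and 5596 in the same order. H3K27ac-only loci numbered 3996, 10500, 16633 and 6389. Occipital cortex thus had the most loci with both marks and the most with H3K4me2 only, while frontal cortex of the same day had the most with H3K27ac only.

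**Figure D1:**
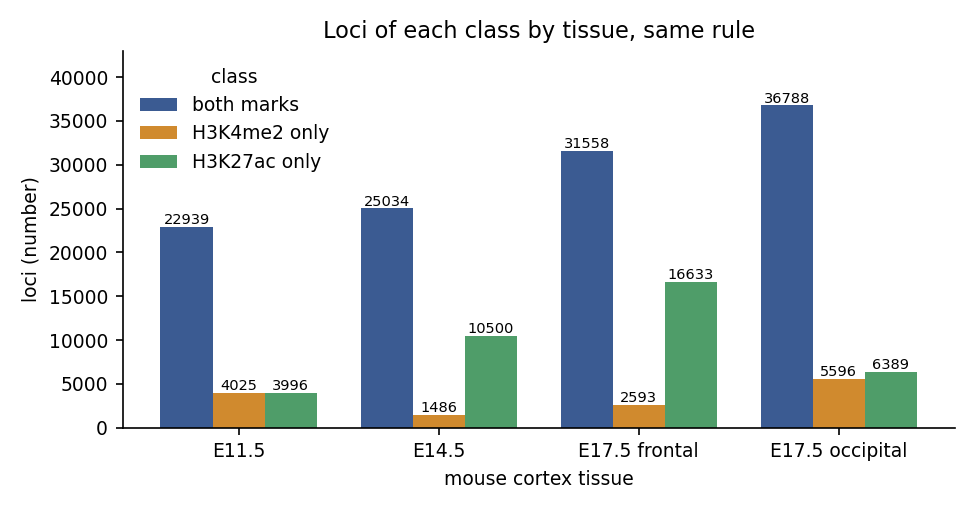
Number of loci (vertical axis) in each of the 3 classes (colours) when the rule is applied to the 4 lists of each mouse tissue (horizontal axis). In occipital cortex the 2 single-mark classes are close in size (5596 and 6389), whereas in frontal cortex H3K27ac-only loci (16633) far outnumber H3K4me2-only loci (2593).

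The share of H3K4me2-only loci was also taken per replicate, since the lists of a replicate share an input. Of the loci formed from the 2 lists of an occipital replicate, 13.0% in replicate 1 and 24.6% in replicate 2 had H3K4me2 only (18.8% ± 8.23, SD, n = 2). The other 6 replicate pairs had 10.9% and 33.1% at E11.5, 3.88% and 15.4% at E14.5, and 9.52% and 6.75% in frontal cortex (13.2% ± 10.5, SD, n = 6). The groups overlapped, and their means differed by 5.57 percentage points. The occipital lists had defined the classes, and an exact permutation of 2 pairs against 6 cannot go below a two-sided p of 0.0714, so no call is made. The lengths of the lists also differed between pairs. The ratio of H3K4me2 to H3K27ac list length was 0.698 and 1.25 in the occipital pairs, 0.813 and 1.77 at E11.5, 0.452 and 0.889 at E14.5, and 0.619 and 0.562 in frontal cortex. The part of list length in the share was not tested. With an equal number of the widest regions taken from each list the difference was -0.129 points, and without occipital replicate 2 it was -0.247 points.

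Loci with both marks were long and single-mark loci were short. The median length was 3275 bp for loci with both marks (10th to 90th percentile 1575 to 7675 bp, longest 94400 bp). It was 1150 bp for H3K4me2-only loci (850 to 1975 bp, longest 9575 bp) and 1325 bp for H3K27ac-only loci (800 to 3075 bp, longest 17050 bp). Among loci with both marks 25.4% were longer than 5 kb and 1871 were longer than 10 kb. Only 25 H3K4me2-only loci and 134 H3K27ac-only loci passed 5 kb, and 6 H3K27ac-only loci passed 10 kb. A locus that joins regions of 4 lists can only grow with each list, so these lengths describe the classes and were not tested.

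Within the loci with both marks, the 2 marks covered much of the same sequence. Of the bases covered by either mark, 53.5% in replicate 1 and 57.2% in replicate 2 carried both. Bases with H3K27ac alone made up 29.5% in replicate 1 and 11.9% in replicate 2, and bases with H3K4me2 alone 17.1% and 30.9%. The replicates thus ranked the marks in opposite order, as did their list lengths. In replicate 1, 253 of the 36788 loci (0.688%) had no base in common between the marks, and in replicate 2 the number was 189 (0.514%).

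The 5 longest loci with both marks were covered over part of their length at E11.5, to differing degrees. The locus chr14:64987276-65081675 (94400 bp) was covered by H3K27ac over 11050 and 8575 bp at E11.5 (replicates 1 and 2), 69425 and 50300 bp at E14.5, 87651 and 92000 bp in frontal and 94400 and 73675 bp in occipital cortex. H3K4me2 covered 3625 and 10850 bp of it at E11.5, 8000 and 15650 bp at E14.5, 22475 and 23425 bp in frontal and 35175 and 49975 bp in occipital cortex. Acetylation filled most of this domain in all lists from E14.5 on, and methylation covered less of it than acetylation did in every list from E14.5 on. At chr8:87245001-87327150 (82150 bp) both marks were broad in the later lists. There H3K27ac covered 34950 and 26900 bp at E11.5 and 72450 and 68750 bp in occipital cortex, and H3K4me2 24300 and 31000 bp against 76500 and 78375 bp. At chr8:122875601-122968425 (92825 bp) H3K27ac already covered 61175 and 45525 bp at E11.5, against 91225 and 72075 bp in occipital cortex, and H3K4me2 covered 12000 and 21050 bp against 22400 and 42850 bp. The occipital lists lay above both E11.5 lists for both marks at these 3 loci. The loci were chosen for their occipital length, which favours that order, and the E14.5 and frontal values did not enter the choice.

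**Figure D2:**
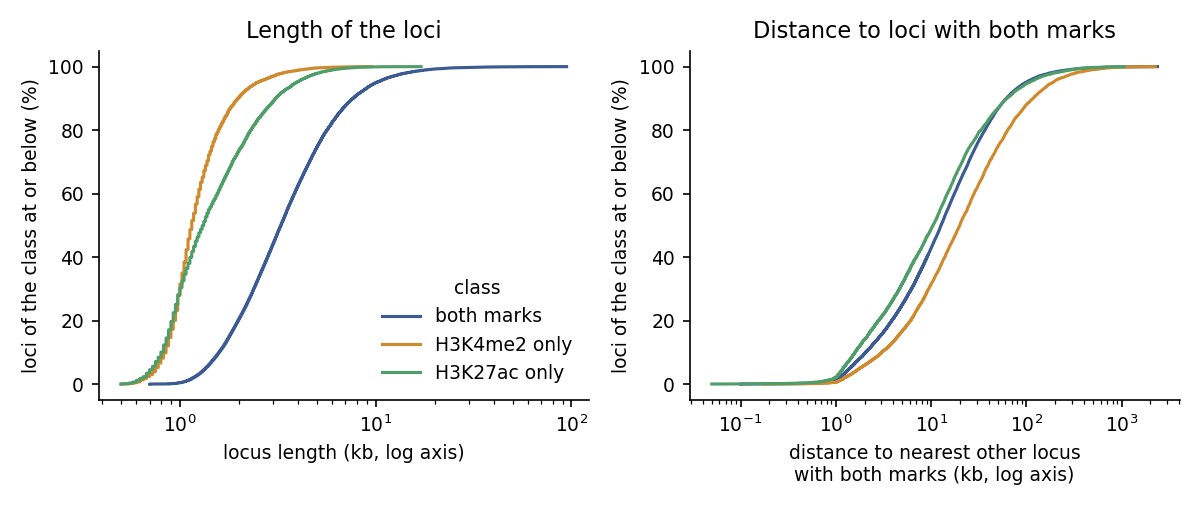
Cumulative share of loci (vertical axis, %) by locus length (left, kb, log axis) and by distance to the nearest other locus with both marks (right, kb, log axis) for the 3 occipital classes (colours). Loci with both marks are longer throughout (median 3275 bp against 1150 and 1325 bp), and H3K4me2-only loci lie farther from them (median 19975 bp) than H3K27ac-only loci do (10475 bp).

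The 2 single-mark classes sat differently relative to loci with both marks. H3K27ac-only loci lay a median of 10475 bp from the nearest locus with both marks, and 5.37% lay beyond 100 kb. H3K4me2-only loci lay a median of 19975 bp away, and 12.0% lay beyond 100 kb. Between loci with both marks the median gap to the nearest other one was 12700 bp. The rule applied to the other tissues gave the same order: the median distance of H3K4me2-only loci was 28150, 28412.5 and 20600.5 bp at E11.5, E14.5 and in frontal cortex, against 17475, 17312.5 and 14350 bp for H3K27ac-only loci. Distances are a description over loci of shared lists, and tissues with fewer loci with both marks have wider gaps.

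Loci of 1 single-mark class tended to follow each other along the chromosome. Among class loci in genomic order, the next locus after an H3K4me2-only locus was again H3K4me2 only in 22.5% of cases, where the class made up 11.5% of all class loci. After an H3K27ac-only locus the next was of the same class in 23.4% of cases, against 13.1% of all class loci. An H3K4me2-only locus was followed by an H3K27ac-only locus in 7.26% of cases. The other tissues showed the same pattern. At E11.5, for example, 25.0% of H3K4me2-only loci were followed by their own class, which made up 13.0% of class loci, and in frontal cortex it was 16.1% against 5.11%.

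Stretches holding several of the longest single-mark loci were examined after their values had been seen. Those loci were chosen for their occipital length, which favours high occipital values of their mark. On chromosome 9, chr9:112624726-113400000 (775275 bp) held 34 H3K27ac-only loci, 9 loci with both marks and no H3K4me2-only locus. H3K27ac covered 9975 and 6825 bp of it at E11.5, 91900 and 64550 bp at E14.5, 326074 and 319150 bp in frontal and 320925 and 224925 bp in occipital cortex. H3K4me2 covered between 3500 and 31575 bp in the 8 methylation lists. Acetylation of this stretch was therefore low in both E11.5 lists, intermediate at E14.5 and high in all 4 lists of E17.5, while methylation stayed sparse in every list. The stretch starts at a locus with both marks chosen for H3K4me2 only at E11.5, and thus without H3K27ac there. It also holds a locus chosen for no region at E11.5 or E14.5 and another chosen for a called H3K27ac increase from E11.5 to frontal cortex. At these loci the choice favoured the order of the values. The shorter stretch chr5:112217076-112504450 (287375 bp) held 6 loci with both marks and 4 with H3K27ac only, and its acetylated length went from 66525 and 39900 bp at E11.5 to 236925 and 153400 bp in occipital cortex.

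A stretch of chromosome 2 showed the opposite combination. The interval chr2:6656951-6740200 (83250 bp) held 4 H3K4me2-only loci and no locus of the other classes. H3K27ac covered 0 bp of it in all 8 acetylation lists. H3K4me2 covered 0 and 1450 bp at E11.5, 0 bp in both lists at E14.5, 2700 and 4150 bp in frontal and 9200 and 23575 bp in occipital cortex. Methylated length was highest in the 2 occipital lists, which also differed from each other by more than the frontal lists did. The interval is bounded by H3K4me2-only loci chosen for their occipital length and for having no region at E11.5 or E14.5. The choice favoured this order, and the frontal values did not enter it.

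The proportion of single-mark loci varied between chromosomes. Per 100 loci with both marks, H3K4me2-only loci numbered 9.94 on chromosome 7 and 10.95 on chromosome 17, the lowest of the 20 chromosomes compared (autosomes and X), and 20.0 on chromosome 14, the highest. H3K27ac-only loci were most frequent on chromosome 17 at 20.6 per 100 and least frequent on chromosome 10 at 12.6 per 100. Counted from the lowest, chromosome 7 ranked 3 at E11.5, 4 at E14.5 and 3 in frontal cortex for H3K4me2-only loci. Chromosome 17 did not keep its place, with ranks of 5, 16 and 14.

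The 12 lists of the other mouse tissues took no part in defining the classes and were used to test how widely each class was marked elsewhere. Loci with both marks were acetylated in 84.9% ± 12.0 of cases, H3K27ac-only loci in 50.0% ± 22.1 and H3K4me2-only loci in 15.3% ± 5.96 (mean ± SD over the 6 H3K27ac lists of E11.5, E14.5 and frontal cortex). They were methylated in 78.2% ± 9.25, 5.79% ± 4.77 and 39.3% ± 12.3 of cases in the 6 H3K4me2 lists. A single-mark locus of occipital cortex was thus more often called with its own mark than with the other mark in these tissues. Over all loci the share ran from 31.0% to 60.4% in the H3K27ac lists and from 27.5% to 42.0% in the H3K4me2 lists. For both single-mark classes the mean share with the own mark lay within that range. The mean share with the other mark lay below it.

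Per list, the share of H3K4me2-only loci with H3K27ac was 12.4% and 7.74% at E11.5 (replicates 1 and 2), 22.9% and 10.4% at E14.5 and 19.0% and 19.4% in frontal cortex. For H3K27ac-only loci the shares were 29.6% and 23.4% at E11.5, 55.2% and 42.5% at E14.5 and 78.2% and 70.9% in frontal cortex. The H3K27ac-only class was therefore above the H3K4me2-only class in every list, and its 2 frontal values lay above its 4 earlier ones. Over all loci the shares were 36.3% and 31.0%, 52.5% and 43.2%, and 60.4% and 59.8%, so they too were highest in frontal cortex. For loci with both marks the shares were 73.9% and 67.1%, 93.2% and 85.1%, and 94.8% and 95.6%.

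In the methylation lists H3K4me2-only loci were called in 25.5% and 44.3% of cases at E11.5, 23.7% and 46.1% at E14.5 and 55.2% and 40.8% in frontal cortex. The replicates of a tissue differed more than the tissues did. H3K27ac-only loci were called in 4.41% and 14.9% of cases at E11.5, 1.42% and 5.21% at E14.5 and 5.90% and 2.86% in frontal cortex. Their highest value thus came from the longer E11.5 list.

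All 6 differences between classes had the same sign in 6 of 6 lists. In the H3K27ac lists, loci with both marks exceeded H3K4me2-only loci by 69.6 ± 7.47 points and H3K27ac-only loci by 35.0 ± 11.6 points, and H3K27ac-only loci exceeded H3K4me2-only loci by 34.7 ± 17.7 points. In the H3K4me2 lists, loci with both marks exceeded H3K4me2-only loci by 38.9 ± 4.80 points and H3K27ac-only loci by 72.4 ± 9.70 points, and H3K27ac-only loci lay below H3K4me2-only loci, with a difference of -33.5 ± 11.2 points. Each difference had an exact two-sided sign-flip permutation p of 0.03125 (n = 6 lists), the smallest that 64 sign flips allow, and 0.03125 after Benjamini-Hochberg adjustment over the 6 tests. The lists come in pairs from 3 tissues, so they are not 6 independent tissues.

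One of these differences rested on both occipital acetylation lists. Without occipital H3K27ac replicate 1 the acetylation difference between H3K27ac-only and H3K4me2-only loci was 2.15 points (exact permutation p = 0.625), and without replicate 2 it was 11.3 points (exact permutation p = 0.0625). With a single list of a mark the class takes in many more loci, 21038 with H3K27ac only when replicate 2 is left out. With loci limited to at most 2 kb, where the classes are closer in length, it was 31.3 points. Differences involving loci with both marks were smaller at that length: in the H3K27ac lists 22.1 points over H3K27ac-only and 53.3 points over H3K4me2-only loci, and in the H3K4me2 lists 57.3 and 24.6 points. With at least 50% of the locus covered, loci with both marks exceeded H3K27ac-only loci by 19.9 points and H3K4me2-only loci by 46.3 points in the H3K27ac lists, and by 51.3 and 20.2 points in the H3K4me2 lists. All of these kept their sign in 6 of 6 lists, with an exact permutation p of 0.03125.

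**Figure D3:**
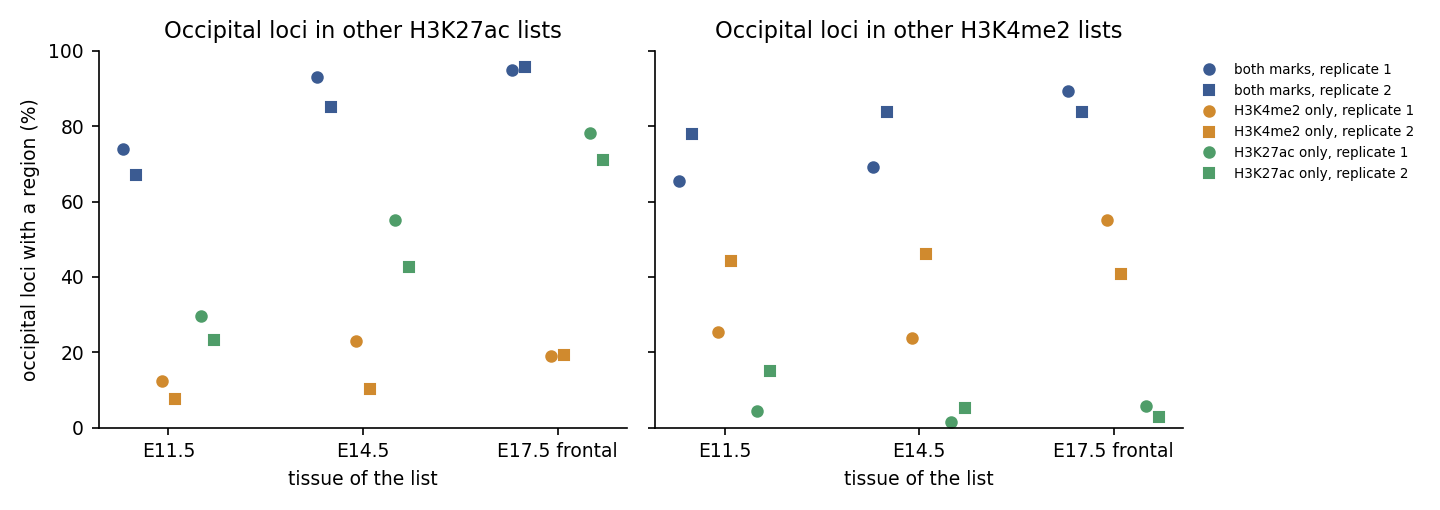
Share of occipital loci of each class (colours) overlapped by a called region (vertical axis, %) in each H3K27ac list (left) and H3K4me2 list (right) of the other 3 mouse tissues (horizontal axis, circles replicate 1, squares replicate 2). H3K27ac-only loci run from 23.4% in an E11.5 acetylation list to 78.2% in a frontal one, and H3K4me2-only loci stay between 7.74% and 22.9% in the acetylation lists.

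Of the loci with both marks in occipital cortex, more were in the same state in frontal cortex than at E11.5. At E11.5, 55.5% had both marks in both replicates, 3.07% had H3K4me2 only, 2.46% had H3K27ac only, 14.49% had no region and in 24.5% the replicates differed. At E14.5, 63.9% had both marks and 3.57% had no region, and in frontal cortex of the same day the shares were 78.0% and 0.506%. Over all 108335 loci, both marks were called at 20.7%, 23.0% and 29.2% in the same order of tissues. These shares depend on the overlap required: with at least 50% of the locus covered, 18.0% of loci with both marks were in the same state at E11.5 and 26.6% at E14.5. Without E14.5 H3K27ac replicate 1, 7.55% had no region at E14.5. In total 18300 loci (49.7%) had both marks in both replicates of all 4 tissues, and their median length was 4025 bp. By contrast 1049 loci (2.85%) had no region of either mark at E11.5 or E14.5, against 34.0% of all 108335 loci, and their median length was 1850 bp. Loci longer than 5 kb made up 35.3% of the constant loci and 2.38% of the newly marked loci, against 25.4% of all loci with both marks. A list counts as present at 1 bp of overlap, which a longer locus meets more easily, so the rule favours this order.

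H3K4me2-only loci were mostly without a region, or unequally called between replicates, in the other tissues. At E11.5, 15.6% had H3K4me2 only, 3.48% had both marks, 52.3% had no region and in 28.3% the replicates differed. At E14.5, 11.9% had H3K4me2 only and 44.8% no region, and in frontal cortex 23.2% had H3K4me2 only and 31.9% no region. Single lists moved these shares: without E11.5 H3K4me2 replicate 1, 31.8% had H3K4me2 only at E11.5, without E14.5 H3K4me2 replicate 1 it was 27.5% at E14.5, and without E14.5 H3K27ac replicate 1 it was 18.1%. Over all 108335 loci the H3K4me2-only state was called at 3.05% at E11.5, 1.24% at E14.5 and 2.09% in frontal cortex. No region was called at 50.3%, 39.2% and 24.4% of all loci in the same order, and replicates differed at 23.4%, 27.5% and 29.7%. The class share without a region at E11.5 was thus near that over all loci. Only 252 loci (4.50%) had H3K4me2 only in all 4 tissues. For 2073 loci (37.0%) no list of E11.5 or E14.5 held a region, and 1157 loci (20.7%) had no region in any of the 12 other mouse lists. Over all loci these shares were 34.0% and 17.8%, so the class lay near the background in both. Loci without a region in the 12 lists numbered 64 (0.174%) among those with both marks and 331 (5.18%) among those with H3K27ac only.

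The share of H3K27ac-only loci in the same state was highest in frontal cortex. At E11.5, 8.22% had H3K27ac only and 59.5% had no region. At E14.5 the shares were 29.2% and 35.8%, and in frontal cortex 52.9% and 9.61%. Over all 108335 loci the H3K27ac-only state also became more frequent, with 2.55%, 9.03% and 14.6% in the same order, and loci without a region fell from 50.3% through 39.2% to 24.4%. With at least 50% of the locus covered, the share of the class in the same state was 3.33% at E11.5 and 14.6% at E14.5. Without E11.5 H3K27ac replicate 2 the E11.5 share was 18.3%, without replicate 1 it was 15.1%, and without E11.5 H3K4me2 replicate 2 it was 12.9%. Without E14.5 H3K27ac replicate 2 the E14.5 share was 49.8%, and without E14.5 H3K27ac replicate 1 the share without a region was 56.4%. A total of 241 loci (3.77%) had H3K27ac only in all 4 tissues. At 1909 loci (29.9%) there was no region at E11.5 or E14.5, slightly below the 34.0% of all 108335 loci. None of the 6389 loci had H3K4me2 only at E14.5 and 24 (0.376%) had it at E11.5. Over all 108335 loci this state was also uncommon, at 1.24% and 3.05%. The class was chosen for having no occipital H3K4me2, which favours low counts. Prior methylation without acetylation was thus rarely called at these loci, as over all loci, in lists where H3K4me2 was also the shorter mark at E14.5.

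**Figure D4:**
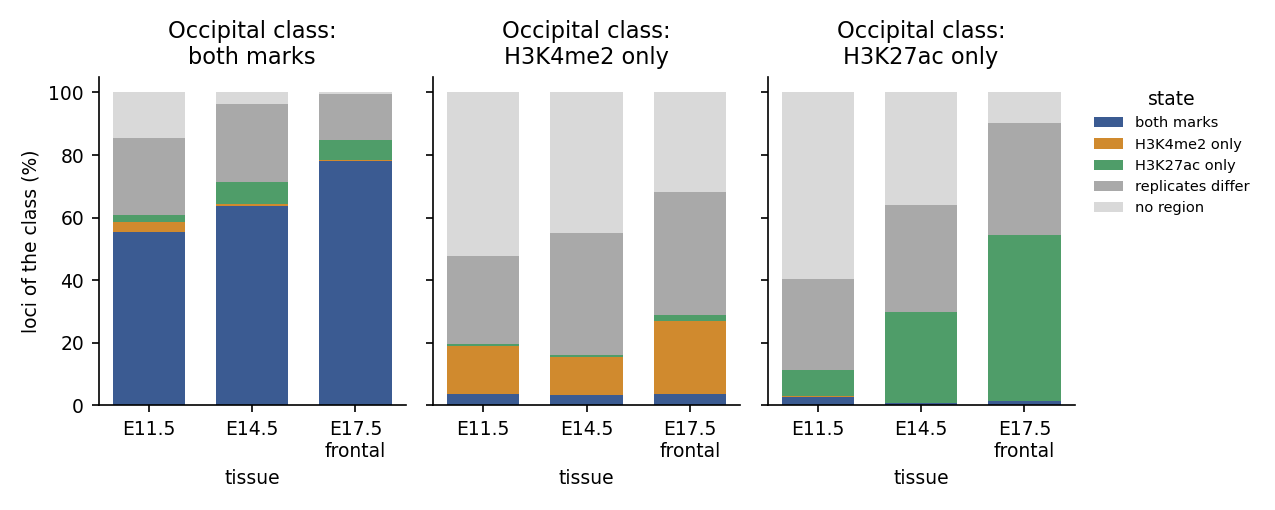
State of the occipital loci of each class (one panel per class) in E11.5, E14.5 and E17.5 frontal cortex (horizontal axis), as a share of the class (vertical axis, %). Colours give the state by the same rule, with light grey for no region and dark grey for replicates that differ. The share without a region at E11.5 is 14.49% for loci with both marks, 52.3% for H3K4me2 only and 59.5% for H3K27ac only. Over all occipital loci (not drawn) it is 50.3%.

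A small set of H3K4me2-only loci had been acetylated in earlier cortex. H3K27ac was called in both E11.5 lists at 255 of the 5596 loci (4.56%), against 26.3% of all 108335 loci. At E14.5, 86 of the 255 had both marks, 24 had H3K4me2 only, and in 132 the replicates differed. In frontal cortex 26 had both marks, 65 had H3K4me2 only and 22 had no region. The number with both marks was thus lower in frontal cortex than at E14.5, and it is 0 in occipital cortex by definition.

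The 5 loci of this set with the longest acetylation at E11.5 are given next. Their acetylation at E11.5, its absence in occipital cortex and the occipital methylation are fixed by the choice, and the E14.5 and frontal values are not. At chr2:105499451-105503875 (4425 bp) H3K27ac covered 4200 and 2800 bp at E11.5, 4175 and 4225 bp at E14.5, 2100 and 1050 bp in frontal and 0 bp in both occipital lists. H3K4me2 covered all 4425 bp in both E11.5 lists, 2800 and 3500 bp at E14.5, 4250 and 3075 bp in frontal and 2925 and 4425 bp in occipital cortex. At chr10:69386776-69390200 (3425 bp) H3K27ac went from 2800 and 2375 bp through 2600 and 1275 bp to 825 and 0 bp in frontal and 0 bp in both occipital lists, with H3K4me2 between 2550 and 3425 bp in all 8 lists. The 2 frontal acetylation values lay below the 2 values of E11.5 at both loci. Choosing loci for long acetylation at E11.5 favours that order. At chr7:144504251-144511325 (7075 bp) acetylation was 3600 and 1925 bp at E11.5, 4700 and 1800 bp at E14.5 and 1700 and 0 bp in frontal cortex. The loci chrX:48557026-48560675 and chr3:100291426-100294675 followed the same order, with 2825 and 2125 bp and 2525 and 2050 bp of H3K27ac at E11.5, and 575 and 0 bp and 525 and 0 bp in frontal cortex.

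The reverse history was found at 1128 of the 36788 loci with both marks (3.07%), which had H3K4me2 only at E11.5. This is near the share over all 108335 loci, 3.05%, and is not a feature of the class. Of the 1128 loci, 469 had both marks at E14.5 and 816 had both in frontal cortex. In 545 of them the E14.5 replicates differed, and 86 still had H3K4me2 only. At chr4:119692726-119710825 (18100 bp) H3K27ac covered 0 bp in both E11.5 lists, 7350 and 8075 bp at E14.5, 16401 and 12450 bp in frontal and 15400 and 18100 bp in occipital cortex. H3K4me2 covered 1800 and 2150 bp at E11.5, 2275 and 2575 bp at E14.5, 7100 and 5975 bp in frontal and 7900 and 11850 bp in occipital cortex. The state at E11.5 and in occipital cortex chose the locus, and at E14.5 and in frontal cortex, which did not, acetylation lay between or near those values. At chr12:51044876-51057175 (12300 bp) H3K27ac was 0 bp at E11.5, 11025 and 8250 bp at E14.5 and 12300 and 10900 bp in occipital cortex, and H3K4me2 went from 1200 and 3850 bp to 9900 and 8900 bp. A further 2536 loci with both marks (6.89%) had H3K27ac only at E14.5. Over all 108335 loci this state was called at 9.03%, so the class lay below that share.

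Newly marked loci were led by a few long ones. With both marks, chr17:3392901-3401925 (9025 bp) had no region at E11.5 or E14.5. It had 3950 and 4800 bp of H3K27ac in frontal and 6650 and 1950 bp in occipital cortex, and H3K4me2 of 4625 and 4325 bp and 4025 and 7775 bp. With H3K4me2 only, chr6:6783026-6788550 (5525 bp) had no H3K27ac in any of 8 lists and H3K4me2 of 3525 and 700 bp in frontal and 3050 and 5275 bp in occipital cortex. With H3K27ac only, chr3:143235851-143245450 (9600 bp) had no H3K4me2 in any of 8 lists and H3K27ac of 6175 and 8225 bp in frontal and 9600 and 2500 bp in occipital cortex. Each of these 3 loci was called in both frontal lists of its mark as well, so none was particular to occipital cortex. Not all H3K4me2-only loci chosen in this way were. Frontal H3K4me2 was 0 and 1650 bp at chr2:6656951-6662825, 0 and 925 bp at chr4:13741326-13748325 and 0 and 550 bp at chr2:6733951-6740200. At chr14:58728101-58732700 it was 3200 and 1100 bp.

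The longest single-mark loci also had regions before E17.5. The longest by methylated length, chr13:23589351-23598925 (9575 bp), had 8425 and 9575 bp of H3K4me2 at E11.5, 2250 and 6800 bp at E14.5, 5900 and 3525 bp in frontal and 6700 and 8450 bp in occipital cortex. It carried short acetylated regions of 1050 and 875 bp at E11.5 and 675 and 575 bp at E14.5, and none at E17.5. At chr5:108149801-108156450 (6650 bp) H3K4me2 covered between 5400 and 6650 bp in all 8 lists, and a single H3K27ac region of 2650 bp was called, in frontal replicate 1. At chr4:131753601-131760475 (6875 bp) no H3K27ac was called in any list, and H3K4me2 covered 6825 and 6800 bp in occipital cortex against 6350 and 1875 bp in frontal cortex. The longest H3K27ac-only locus by acetylated length, chr9:113092226-113109100 (16875 bp), had 0 bp of H3K27ac at E11.5, 5225 and 3725 bp at E14.5, 11800 and 15025 bp in frontal and 16875 and 8025 bp in occipital cortex, and no H3K4me2 in any of the 8 lists.

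**Figure D5:**
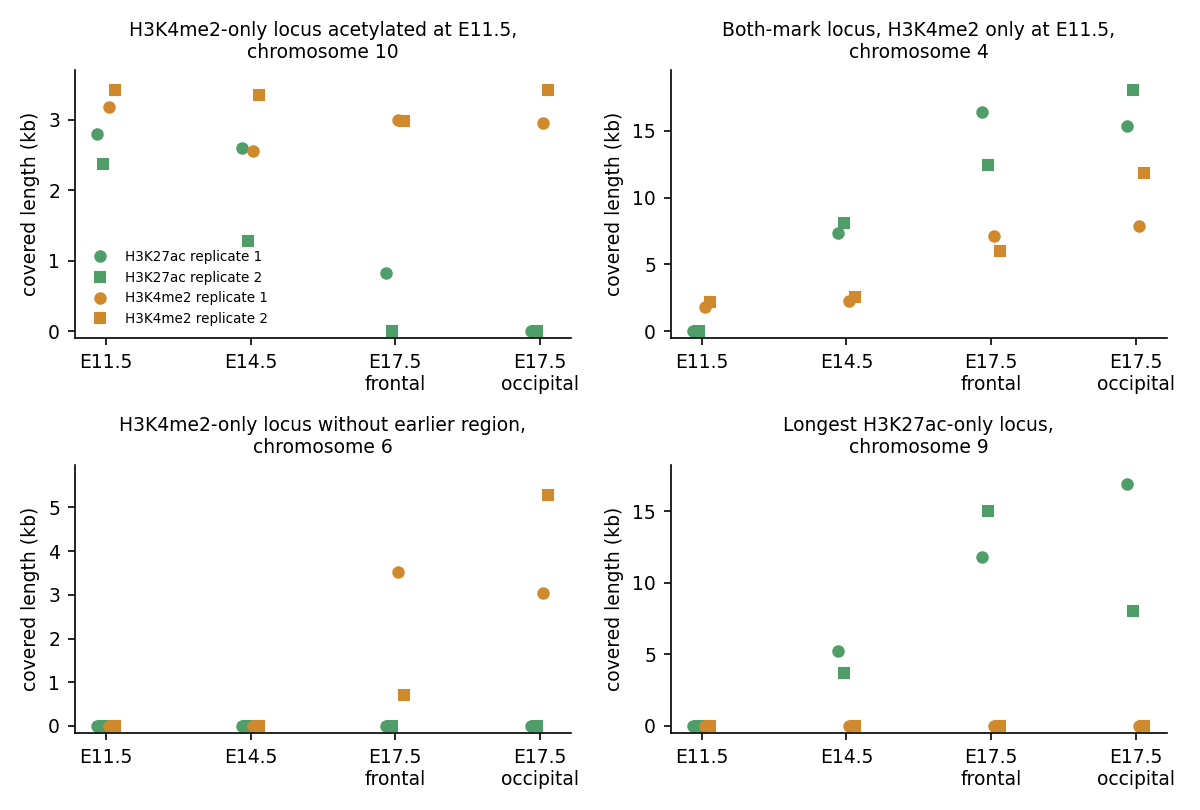
Length covered by called regions (vertical axis, kb) of H3K27ac (green) and H3K4me2 (orange) at 4 single loci in each mouse tissue (horizontal axis, circles replicate 1, squares replicate 2). The loci were chosen for their E11.5 and occipital states or their length, so the values to read are those between: at the chromosome 10 locus H3K27ac was 2600 and 1275 bp at E14.5 and 825 and 0 bp in frontal cortex, and at the chromosome 4 locus 7350 and 8075 bp and 16401 and 12450 bp.

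Changes of covered length between the earlier tissues and E17.5 were tested at all occipital loci in the E11.5, E14.5 and frontal lists, with the occipital lists left out because they define the classes (all 3 contrasts share these lists). The test was limma on log2(covered bp + 200) per mark, with a Benjamini-Hochberg adjusted p below 0.05. For H3K27ac in frontal cortex against E11.5, 67951 loci were tested, 24.0% were longer and 0.824% were shorter, and the median log2 difference in covered length over all tested loci was 1.04. Of the 36788 loci with both marks 36006 were tested, 7950 were longer and 105 shorter, with a median difference of 0.71. Of the 6389 H3K27ac-only loci 5120 were tested, 1523 were longer and 39 shorter, with a median of 1.70. Of the 5596 H3K4me2-only loci 1356 were tested, 176 were longer and 65 shorter, with a median of 0.41. Against a background of 24.0% longer and 0.824% shorter, these are 22.1% and 0.292% of the tested loci with both marks, 29.7% and 0.762% of those with H3K27ac only, and 13.0% and 4.79% of those with H3K4me2 only. A locus covered in the 2 frontal lists alone passes the filter and has to be longer there than at E11.5, so these counts and medians describe the tested loci and not the classes.

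These calls depended on the filter, the scale and the frontal lists. With at least 3 lists required, 639 H3K4me2-only loci were tested, with 21 longer and 29 shorter, and 657 of 3664 tested H3K27ac-only loci were longer. With equally many regions (the widest) from each list, 21 H3K4me2-only loci were longer and 137 shorter, and their median was -1.10. When lengths were divided by the total of their list, 5559 loci with both marks were longer and 10312 shorter, and their median turned to -0.30 against 0.52 for all loci. Without either frontal list limma called no locus, with 14263 loci at an unadjusted p below 0.05 without frontal replicate 1 and 13370 without replicate 2. The loci named next have the largest changes among called loci of the 3 classes whose frontal and E11.5 lists do not overlap. The largest called increase was at chr1:43585701-43609925 (24225 bp, both marks in occipital cortex), with H3K27ac of 0 bp in both E11.5 lists, 1175 and 1125 bp at E14.5 and 18750 and 22800 bp in frontal cortex (log2 difference 6.71, SE 0.147, limma adjusted p = 0.00329). Its occipital values were 23475 and 1325 bp, so the occipital replicates disagreed on its length. The largest called decrease was at chr10:45188501-45190650 (2150 bp, H3K4me2 only in occipital cortex), with H3K27ac of 2150 and 1675 bp at E11.5, 1550 and 875 bp at E14.5 and 0 bp in both frontal lists (log2 difference -3.39, SE 0.359, limma adjusted p = 0.00556). H3K4me2 covered 2150 bp of it in all 4 lists of E11.5 and E14.5, 1950 and 1725 bp in frontal and 1775 and 2150 bp in occipital cortex. The frontal and E11.5 acetylation values did not overlap at either locus, as the choice required. At each, a tissue with 0 bp in both lists added no spread to the SE, and the size of the difference depends on the 200 bp added.

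For H3K4me2 in the same contrast, 46805 loci were tested, of which 10.4% were longer and 2.51% were shorter in frontal cortex, with a median log2 difference of 0.12. Requiring a region in at least 3 lists left 30 longer loci and 1 shorter, and limma called none without E11.5 replicate 1 or without either frontal list (7125, 4100 and 4093 loci at an unadjusted p below 0.05), so class counts are not given for this mark. Loci of this mark were chosen in the same way. The largest called increase was at chr15:66654926-66666650 (11725 bp, both marks in occipital cortex), with H3K4me2 of 0 bp in both E11.5 lists, 2725 and 2775 bp at E14.5, 8625 and 9075 bp in frontal and 8375 and 9225 bp in occipital cortex (log2 difference 5.50, SE 0.105, limma adjusted p = 0.00277). It was already acetylated at E11.5, over 4500 and 2775 bp. The largest called decrease was at chr6:39294926-39298400 (3475 bp, both marks in occipital cortex), with H3K4me2 of 1950 and 3475 bp at E11.5, 900 and 1350 bp at E14.5 and 0 bp in both frontal lists (log2 difference -3.81, SE 0.432, limma adjusted p = 0.00883). H3K27ac covered between 2499 and 3475 bp of it in all 8 lists, and the occipital H3K4me2 lists held 500 and 1050 bp. In the contrasts with E14.5 fewer loci were called in either direction: 10.4% for H3K27ac and 2.58% for H3K4me2 in E14.5 against E11.5, and 10.5% and 7.71% in frontal cortex against E14.5. These calls did not hold under other settings: limma called none for either mark in E14.5 against E11.5 with the replicate block, and none in frontal cortex against E14.5 with at least 3 lists required (13280 and 3691 loci, and 4336 and 2333 loci, at an unadjusted p below 0.05 for H3K27ac and H3K4me2).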

How the data were processed

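Each file deposited by the authors holds called regions as chromosome, start and end positions in bp, other than which no count, signal or score is given. Bowtie 0.12.9 is listed per the submitters' processing notes, as are mm9 and hg19 with no stated role. The mouse lists were taken as mm9 because their regions on chromosome 1 reach past the genes of the newer build. The region caller, its threshold and any pooling were not given in the sources used here. The shortest region was 500 bp in most lists, and neighbours lay at least 1025 bp apart. Samples were grouped by their titles. The gene and promoter tables at hand are of another build and were not used here, so the planned promoter share and gene names were not run. The input samples were not analysed here.

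Overlapping regions of the 4 occipital lists were merged, and a list counted as present at an overlap of at least 1 bp. The value of a locus is the length its regions cover. Limma 3.58.1 (eBayes with a trend) in R 4.3.3 was run on loci covered in at least 2 of 6 lists, with the 200 bp added understating changes of short loci. It and the coverage step were tested on simulated data and against bedtools. Python 3.11.15, numpy 2.4.6, pandas 2.3.3 and matplotlib 3.10.9 were used. The limma p-values measure the spread between 2 replicates a tissue, described as biological in the series' design text. A tissue with 0 bp in both lists, as at the named limma loci of both marks, shows no spread, so SE and p-values there can be too small. The sign-flip p-values measure how consistent a class difference was over the lists of a mark.

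Named loci are, per class, up to 5 with the largest mean covered length of the defining marks, the same among loci without a region at E11.5 or E14.5 or with a given E11.5 state, and up to 3 called changes per direction and mark whose lists do not overlap. A selection of them is printed. The classes, loci and tests were chosen with earlier results of these data known. The alternatives were a 50% overlap, merging within 1000 bp, loci of at most 2000 bp, a pseudocount of 1000 bp, other filters, equal numbers of regions, lengths scaled to the list total, the replicate block and leaving out each list.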

Additional observations from a re-analysis of the deposited data

How the results depend on the processing

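Depth is unknown for every list, so an unmarked locus and a shallow list cannot be told apart, and 2 lists per tissue limit each comparison. Of the 346 recomputed values 193 kept their direction and size class. The causes of the changes below were not tested.

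Leaving out 1 occipital list changes the classes by construction. The counts then ran from 37226 to 43821 for both marks, 7470 to 16796 for H3K4me2 only and 6705 to 21038 for H3K27ac only. With at least 50% of a locus covered, 16238 loci had both marks, 18.0% of them in the same state at E11.5 and 26.6% at E14.5, and 14.6% of H3K27ac-only loci were in the same state at E14.5. With merging within 1000 bp, 60.0% of H3K27ac-only loci had no region at E11.5.

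Leaving out 1 list gave these ranges in points for the class differences. In H3K27ac lists they were 54.0 to 71.7 (both marks minus H3K4me2 only), 29.5 to 51.9 (both marks minus H3K27ac only) and 2.15 to 41.4 (H3K27ac only minus H3K4me2 only). In H3K4me2 lists they were 32.3 to 50.2, 62.2 to 74.7 and -39.8 to -12.0 in the same order. With 5 lists the smallest possible p is 0.0625. The occipital minus other difference in H3K4me2-only share ran from -0.247 to 11.4 points and was -0.129 with equal numbers of regions.

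Shares of a class in the same state ran from 55.6% to 60.8% (both marks), 15.98% to 31.8% (H3K4me2 only) and 8.41% to 18.3% (H3K27ac only) at E11.5 without 1 list, and from 64.2% to 75.9%, 12.5% to 27.5% and 29.6% to 49.8% at E14.5. Shares without a region ran from 14.6% to 18.5%, 52.6% to 68.4% and 59.6% to 69.5% at E11.5, and from 3.70% to 7.55%, 45.9% to 60.4% and 35.9% to 56.4% at E14.5.

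Limma counts for H3K27ac, frontal minus E11.5, ranged without 1 list from 0 to 19509 longer and 0 to 841 shorter over all loci, 0 to 10164 and 0 to 134 for both marks, 0 to 240 and 0 to 108 for H3K4me2 only, and 0 to 2010 and 0 to 53 for H3K27ac only. A lone remaining list is assumed to vary like the other tissues. The lowest values came from leaving out frontal lists. Wherever leaving out a list left 0 limma calls in any contrast, 1515 to 14263 loci had an unadjusted p below 0.05. With at least 3 lists required the counts were 9597 longer and 245 shorter over all loci, 21 and 29 for H3K4me2 only, and 657 and 19 for H3K27ac only. With equal numbers of regions they were 9345 and 1703 over all loci, 407 shorter for both marks, 21 and 137 for H3K4me2 only, and 743 and 126 for H3K27ac only. With scaled lengths 11743 loci were shorter, of which 10312 had both marks, 116 H3K4me2 only and 211 H3K27ac only. H3K4me2 gave 0 to 6919 longer and 0 to 2077 shorter loci without 1 list, 8 and 3 without a filter, 30 and 1 with at least 3 lists and 1994 shorter with equal numbers.

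The other limma contrasts called 2007 to 8838 loci without 1 list for H3K27ac, E14.5 minus E11.5 (4654 with 1000 bp added, 4023 without a filter), and 0 to 10113 for frontal minus E14.5 (2757 without a filter, 0 with at least 3 lists, where 4336 had an unadjusted p below 0.05). For H3K4me2 they called 0 to 2835 for E14.5 minus E11.5 (510 with 1000 bp added, 7 without a filter, 2 with at least 3 lists, 2183 scaled, 3105 with equal numbers) and 0 to 5925 for frontal minus E14.5 (0 without a filter and 0 with at least 3 lists, with 5513 and 2333 loci at an unadjusted p below 0.05).

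Between E11.5, E14.5 and frontal cortex, deviations of same-numbered lists correlated at -0.125 to 0.283, highest for H3K4me2 between E11.5 and E14.5. The occipital lists were not part of this check. H3K27ac replicate 1 was longer than replicate 2 in every mouse tissue (85.3 against 63.1 Mb at E11.5, for example). H3K4me2 replicate 2 was the longer in every tissue but frontal cortex. Whether replicate numbers mark a batch was not tested. With the replicate block limma called 13723 longer and 432 shorter loci for H3K27ac and 3672 and 927 for H3K4me2, frontal minus E11.5. For E14.5 minus E11.5 the block left 0 calls for H3K27ac and 0 for H3K4me2, with 13280 and 3691 loci at an unadjusted p below 0.05.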
